A study of Mus musculus with 59 samples.

Results

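A330076C08Rik, Cplx2, Arl10 and Mxd3 are 4 genes on mouse chromosome 13 whose starts lie within 10 Mb of the start of Atxn1, the gene that carries the knock-in mutation of this SCA1 mouse series. They were chosen by their measured counts: their level differed between 154Q and wildtype (WT) mice, at an adjusted p under 0.05, in 3 or 4 of 5 brain regions. Of 205 genes within 10 Mb that had enough counts to be tested in at least 1 region, 6 met these limits: the 4 named members plus Id4 and Dok3, whose values are given beside them further on. In the whole series 23310 genes were tested. The values that chose the members are those of 154Q against WT, so this comparison is described here with no test, and tests are kept for the 154Q-AXH mice and for the WT regions.

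RNA of 12 mice of the C57BL/6 strain, 10 weeks old, was sequenced as 59 polyA libraries from 5 regions: cortex, striatum, hippocampus, cerebellum and brainstem. WT mice carried no Atxn1 mutation (WT-220 and WT-221, with WT-70 and WT-77). The Atxn1 154Q/2Q mice, called 154Q here (154Q-75 and 154Q-76, with 154Q-69 and 154Q-71), had 1 Atxn1 copy with an expanded CAG repeat that encodes a long polyglutamine tract, and 1 copy with the normal mouse sequence. The Atxn1 154Q[V591A;S602D]/2Q mice, called 154Q-AXH here (154Q-AXH-217 and 154Q-AXH-218, with 154Q-AXH-207 and 154Q-AXH-209), had the same expanded copy with the substitutions V591A and S602D added to its AXH domain by gene editing of fertilised eggs. Mouse 154Q-AXH-217 had no brainstem library among the files used. The knock-in is expressed in every cell that uses the Atxn1 gene, and its expression cannot be assigned to 1 cell type in this tissue RNA.

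Ataxin-1 is a nuclear protein that binds the transcriptional repressor Capicua (CIC) through its AXH domain, and a long polyglutamine tract in ataxin-1 causes spinocerebellar ataxia type 1. The added substitutions disrupt the binding of ataxin-1 to CIC. The members have no common function: A330076C08Rik is a long intergenic noncoding RNA, Cplx2 (complexin 2) binds the SNARE complex and regulates synaptic vesicle fusion, Arl10 belongs to the ARF-like family of small GTPases, and Mxd3 is a MAX partner that represses transcription in opposition to MYC.

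Libraries held 28058359 to 112343574 counted read pairs, and those of the striatum (28058359 to 54719126) and cortex (34530406 to 46174761) held fewer than any library of the other regions. The regional markers were highest in the region named on the label in the cerebellum, brainstem, hippocampus and striatum, and no marker of any region's own list was at a count of 0 in that region. The cortical list was not specific, since the striatal library of WT-77 reached a summed 521 CPM (counts scaled to the size of the library) against a lowest cortical value of 316 CPM. The labels of 4 libraries were in doubt. The hippocampal library labelled 154Q-76 held both Xist (187 CPM) and the Y-linked Ddx3y (53.7 CPM) and had brainstem markers at 49.0% of the WT brainstem median. The cortical library labelled WT-221 had Xist at 470 CPM and Ddx3y at 0.896 CPM, unlike the other libraries of that mouse. The cortical libraries labelled 154Q-76 and 154Q-AXH-207 carry each other's mouse in their file names, and the labels were used. Mice 154Q-75 and 154Q-AXH-217 had Xist at 421 to 1160 CPM and 430 to 1061 CPM in their libraries, with Ddx3y at most 1.24 CPM. In all other libraries but the hippocampal 154Q-76 and cortical WT-221, Xist was at most 5.92 CPM and Ddx3y at least 62.0 CPM. By these genes 154Q-75 and 154Q-AXH-217 were female, and sex was not balanced between genotypes. All 154Q mice have numbers of 2 digits and all 154Q-AXH mice numbers of 3 digits, with WT mice in both series, so number series and mutant genotype can be separated only through the WT mice.

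By GENCODE release M21 on GRCm38, A330076C08Rik lies on the minus strand at chr13:44185760-44216487, 1.75 Mb from the Atxn1 start, and its 5 merged exons hold 6641 bases. The other members lie on the opposite side of Atxn1. Cplx2 is on the plus strand at chr13:54371349-54383917, 8.41 Mb away, Arl10 on the plus strand at chr13:54575015-54581128, 8.61 Mb away, and Mxd3 on the minus strand at chr13:55325168-55329823, 9.36 Mb away. Atxn1 itself is on the minus strand at chr13:45549755-45965008. Cplx2, Arl10 and Mxd3 therefore share a stretch of under 1 Mb, and 20 to 24 other genes between Cplx2 and Mxd3 were tested in each region. Of these neighbours, 0 were called in 154Q against WT in the cerebellum and brainstem and 1 each in the hippocampus, striatum and cortex, and 0 were called in 154Q-AXH against WT in any region. Among all genes the share called per region was 0.538% to 11.1% in 154Q and 0.0138% to 7.15% in 154Q-AXH. At these shares 20 to 24 genes would hold few calls or none. The neighbours' median absolute log2 change per region was 0.03 to 0.11 in 154Q and 0.04 to 0.12 in 154Q-AXH. Among all genes it was 0.08 to 0.17 and 0.08 to 0.14.

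Mxd3 needs a caution on counting. Its exons share 105 bases, 4.43% of their length, with Prelid1 on the opposite strand, and the libraries do not keep strand, so read pairs in the shared bases cannot be assigned and were left uncounted. Over all libraries Mxd3 had 1396 counts when strand was ignored, but 17621 and 13740 when pairs were assigned to the first or the second strand, a sum 22.5 times the count that ignored strand. For A330076C08Rik, Cplx2 and Arl10 the ratio was 1.0. Prelid1 had 320251 counts when strand was ignored. Most of the 17621 pairs were not among the 1396, so they lie in the bases shared with Prelid1. Because strand is not kept, counts assigned to 1 strand can include Prelid1 pairs from the shared bases, in a share that was not tested. Counts of 1 strand therefore do not measure Mxd3 alone. The Mxd3 values below rest on 3 to 125 counts a library. Arl10 encloses the miRNA gene Gm24195 (chr13:54578113-54578249) in its introns, with no exonic base in common.

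CIC binds octamers, so the bases before each member's annotated start are given, as RefSeq sequence of GRCm38.p6 from 5′ to 3′ on the gene's own strand, with every CG dinucleotide in capitals. The stretches are chr13:44216488-44216737 for A330076C08Rik, chr13:54302306-54302555 for Cplx2, chr13:54574797-54575046 for Arl10 and chr13:55329732-55329981 for Mxd3. The RefSeq start of Cplx2 lies 68.8 kb before the GENCODE start, so that stretch belongs to a longer transcript model.
A330076C08Rik: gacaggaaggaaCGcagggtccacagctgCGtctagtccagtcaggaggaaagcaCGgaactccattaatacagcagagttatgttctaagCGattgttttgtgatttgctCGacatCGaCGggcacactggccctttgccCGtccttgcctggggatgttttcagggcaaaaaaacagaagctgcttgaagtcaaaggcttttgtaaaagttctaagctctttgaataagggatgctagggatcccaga
Cplx2: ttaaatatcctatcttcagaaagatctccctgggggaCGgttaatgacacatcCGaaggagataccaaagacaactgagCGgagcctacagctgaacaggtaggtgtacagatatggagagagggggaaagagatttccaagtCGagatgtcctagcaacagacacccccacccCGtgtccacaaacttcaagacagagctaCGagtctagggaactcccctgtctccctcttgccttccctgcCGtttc
Arl10: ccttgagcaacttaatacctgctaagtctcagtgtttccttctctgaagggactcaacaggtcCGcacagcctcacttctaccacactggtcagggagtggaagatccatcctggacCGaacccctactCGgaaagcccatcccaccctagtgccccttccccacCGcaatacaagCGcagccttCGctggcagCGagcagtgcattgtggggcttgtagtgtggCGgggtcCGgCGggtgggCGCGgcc
Mxd3: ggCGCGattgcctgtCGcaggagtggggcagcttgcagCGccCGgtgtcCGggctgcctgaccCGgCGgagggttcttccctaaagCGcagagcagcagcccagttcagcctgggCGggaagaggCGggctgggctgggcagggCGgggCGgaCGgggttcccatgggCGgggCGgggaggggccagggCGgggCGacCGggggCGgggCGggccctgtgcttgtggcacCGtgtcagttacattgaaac
The A330076C08Rik stretch has 8 CG dinucleotides and the Cplx2 stretch 7, against 12 for Arl10 and 22 for Mxd3. In the whole promoter window, which adds 50 bases after the start, GC content was 50% for A330076C08Rik, 53.3% for Cplx2, 60% for Arl10 and 71% for Mxd3, and the median of 32851 mouse promoters was 52.7%. The octamers TGAATGAA, TGAATGGA, TCAATGAA and TCAATGGA were searched on both strands. At least 1 of them was in 3.84% of all promoter windows and in 0 of the 4 members' windows, which speaks only of these letters in these windows.

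The members differed in the order of regions by WT level, and this order was not used to choose them. Levels were set side by side per kilobase of exon (RPKM), and neighbouring regions in each gene's order were tested with edgeR across 22200 genes, and 9 of 16 neighbouring pairs were called, or 6 to 8 when 1 WT mouse was left out and 7 with counts assigned to 1 strand. Each order came from the same levels that were then tested. The main fit took the regions of a mouse as separate libraries. Among all genes the share called was 10.7% between striatum and cortex, 55.4% between hippocampus and cortex and 58.2% between hippocampus and striatum. It was 60.7% (hippocampus), 65.1% (cortex), 65.4% (cerebellum) and 66.1% (striatum) against the brainstem, and 63.6% (hippocampus), 70.3% (cortex) and 71.8% (striatum) against the cerebellum.

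A330076C08Rik was highest in the hindbrain regions. Its WT level was 1.37 ± 0.340 RPKM (SD, n = 4) in the brainstem and 0.904 ± 0.229 in the cerebellum, against values of 0.206 ± 0.0224 (hippocampus), 0.165 ± 0.0608 (striatum) and 0.0955 ± 0.0257 (cortex). The brainstem exceeded the cerebellum (log2 difference 0.60, SE 0.17, adjusted p = 0.00545) and the cerebellum exceeded the hippocampus (2.14, SE 0.21, adjusted p = 1.67e-08), while the step from hippocampus to striatum (adjusted p = 0.437) and that from striatum to cortex (0.81, 95% interval 0.035 to 1.58, adjusted p = 0.172) did not pass the test. DESeq2 called the last of these (adjusted p = 0.0388).

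Cplx2 was the most abundant member everywhere, with its maximum in the hippocampus at 312 ± 32.9 RPKM, followed by the striatum (278 ± 3.10), cortex (232 ± 26.7), cerebellum (203 ± 17.97) and brainstem (88.3 ± 1.04). The step from cerebellum to brainstem was the widest (log2 difference 1.20, SE 0.081, adjusted p = 6.12e-11). The hippocampus and striatum did not pass the test (adjusted p = 0.0785), and the step from striatum to cortex passed it (0.26, SE 0.080, adjusted p = 0.0430) but not with the mouse number as a replicate block (0.26, adjusted p = 0.0529).

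Arl10 varied least. It had 9.37 ± 0.821 RPKM in the brainstem, 7.86 ± 0.245 in the cortex, 6.98 ± 0.840 in the striatum, 6.38 ± 0.410 in the hippocampus and 5.26 ± 0.498 in the cerebellum, a range of 1.78-fold from lowest to highest. The brainstem stood above the cortex (adjusted p = 0.0159) and the hippocampus above the cerebellum (adjusted p = 0.00905), and the steps from cortex to striatum and from striatum to hippocampus did not pass the test (adjusted p = 0.237 and 0.242). The call of brainstem over cortex was lost without WT-77 (adjusted p = 0.0641), without WT-220 (adjusted p = 0.0564) and with counts of 1 strand (adjusted p = 0.0937).

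Mxd3 was highest in the forebrain by the counts that ignore strand, at low level. Its WT level was 0.603 ± 0.275 RPKM in the striatum, 0.434 ± 0.0599 in the cortex and 0.264 ± 0.0461 in the hippocampus, against 0.0635 ± 0.0299 in the cerebellum and 0.0479 ± 0.0157 in the brainstem. The hippocampus exceeded the cerebellum by 2.05 on the log2 scale (SE 0.35, adjusted p = 3.53e-05), the striatum and cortex did not pass the test (adjusted p = 0.191), nor did the cerebellum and brainstem (adjusted p = 0.501). This order holds for the counts that ignore strand, and counts of 1 strand come mostly from the bases shared with Prelid1. With counts assigned to 1 strand the hippocampus exceeded the cerebellum by 0.24 only (adjusted p = 0.178), and the brainstem stood above the cerebellum (log2 difference of cerebellum from brainstem -0.53, adjusted p = 0.00403).

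**Figure D1:**
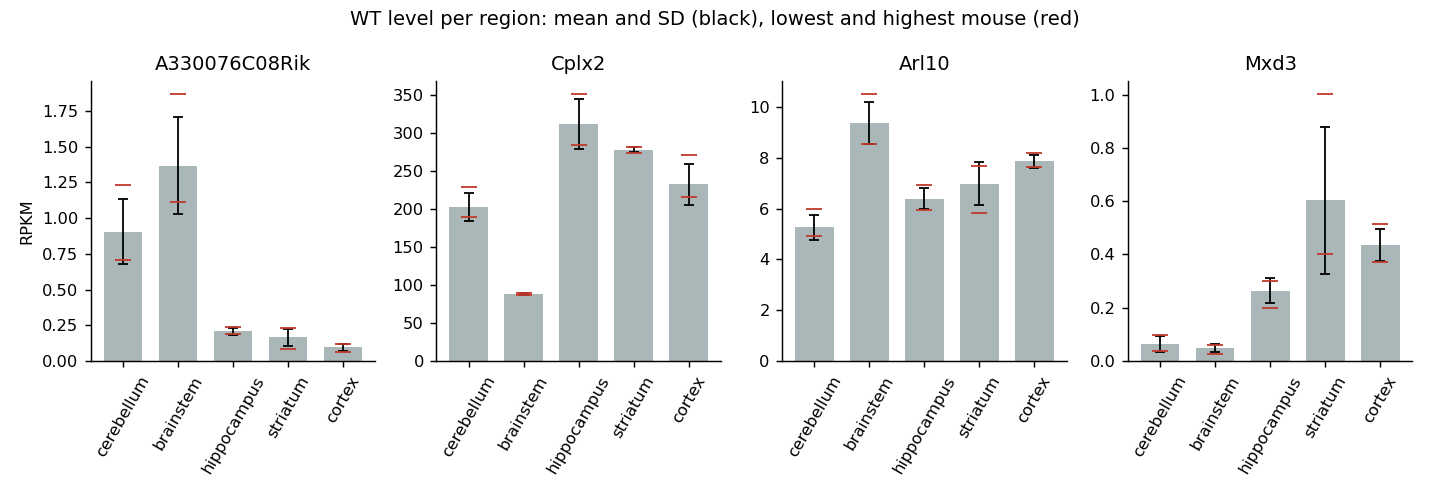
Bars give the mean WT level of each member in RPKM in the 5 regions, on a linear axis from 0, with the SD over 4 mice in black and the lowest and highest mouse in red. A330076C08Rik peaks in the brainstem at 1.37 RPKM and Mxd3, in the counts that ignore strand, in the striatum at 0.603 RPKM, while Cplx2 runs from 88.3 to 312 RPKM.

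The genotypes were compared within each region. Levels below are CPM after TMM scaling within a region, which can be compared between libraries of a region but not between genes, and values of a group follow each other in order of rising mouse number.

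A330076C08Rik had its lowest values in the mutant mice. In the cerebellum the WT mice had 4.93, 8.70, 5.54 and 5.84 CPM. The 154Q mice had 2.51, 3.25, 2.72 and 2.75 CPM, and the 154Q-AXH mice had 2.99, 2.42, 2.87 and 2.27 CPM. Every mutant library was thus below every WT library, and the mutant groups lay within each other. In the brainstem, WT libraries had 8.58, 12.6, 7.55 and 8.48 CPM, 154Q libraries 4.27, 3.98, 3.49 and 3.08 CPM, and the 3 154Q-AXH libraries 3.26, 3.73 and 3.77 CPM. Again no mutant library reached the lowest WT library. In the striatum, where the gene is weak, WT libraries had 1.07, 1.20, 1.501 and 0.566 CPM, 154Q libraries 0.310, 0.319, 0.280 and 0.388 CPM, and 154Q-AXH libraries 0.313, 0.436, 0.555 and 0.468 CPM. The highest 154Q-AXH library came close to the lowest WT library there. In the cortex WT libraries had 0.407, 0.809, 0.707 and 0.606 CPM, 154Q libraries 0.283, 0.351, 0.217 and 0.234 CPM, and 154Q-AXH libraries 0.285, 0.376, 0.210 and 0.449 CPM, so that 154Q-AXH overlapped WT. The hippocampus was the exception. WT libraries had 1.62, 1.33, 1.37 and 1.27 CPM, 154Q libraries 0.998, 0.934, 0.821 and 2.16 CPM, and 154Q-AXH libraries 0.936, 1.19, 1.04 and 2.04 CPM. The high 154Q value is that of the doubted library 154Q-76, and the brainstem, whose markers it holds, has the most A330076C08Rik of the 5 regions. The high 154Q-AXH value is that of 154Q-AXH-218, which had brainstem markers at 0.363% of the WT brainstem median. What raised either value was not tested. With the doubted library 154Q-76 left out the hippocampal log2 change in 154Q went from -0.14 to -0.61.

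Cplx2 was lower in 154Q mice, by less than A330076C08Rik and in more even groups. Striatal WT libraries had 1351, 1381, 1340.0 and 1377 CPM, 154Q libraries 993, 946, 1048 and 1023 CPM, and 154Q-AXH libraries 996, 1146, 1264 and 1012 CPM. Neither mutant group overlapped WT, and 2 of the 154Q-AXH libraries lay above all 154Q libraries. In the cortex, WT libraries had 1334, 1065, 1053 and 1109 CPM, 154Q libraries 868, 911, 817 and 882 CPM, and 154Q-AXH libraries 946, 906, 962 and 939 CPM. These mutant groups were also both below WT. Cerebellar WT libraries had 979.6, 1012, 1147 and 1012 CPM, 154Q libraries 949, 830.3, 895 and 914 CPM, and 154Q-AXH libraries 946, 1029, 971 and 943 CPM, of which the last overlapped WT. In the brainstem Cplx2 ranged from 443 to 451 CPM in WT, 375 to 433 CPM in 154Q and 412 to 449.8 CPM in 154Q-AXH. In the hippocampus it ranged from 1439 to 1752 CPM in WT, 977 to 1523 CPM in 154Q and 1459 to 2139.8 CPM in 154Q-AXH, with the lowest value in the doubted library 154Q-76.

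Arl10 was the only member that was higher in mutant mice. Cortical WT libraries had 14.1, 13.2, 13.2 and 13.6 CPM, 154Q libraries 22.7, 17.1, 20.8 and 17.1 CPM, and 154Q-AXH libraries 18.4, 19.3, 17.1 and 21.1 CPM. Both mutant groups lay wholly above WT and within each other. Striatal WT libraries had 13.3, 11.9, 9.82 and 13.1 CPM, 154Q libraries 16.9, 16.0, 20.1 and 16.4 CPM, and 154Q-AXH libraries 16.8, 16.8, 13.6 and 17.4 CPM. In the hippocampus, WT libraries had 11.04, 10.6, 12.1 and 11.2 CPM, 154Q libraries 13.6, 14.2, 15.3 and 16.0 CPM, and 154Q-AXH libraries 14.1, 12.7, 12.7 and 13.6 CPM. In these regions too, no mutant library fell to the WT range. In the cerebellum the genotypes parted: WT libraries had 10.8, 9.004, 8.68 and 9.34 CPM, 154Q libraries 12.7, 11.1, 11.5 and 11.03 CPM, and 154Q-AXH libraries 10.1, 9.70, 10.7 and 9.45 CPM. There 154Q lay above both other groups, and 154Q-AXH overlapped WT. Brainstem values, 15.3 to 18.6 CPM in WT, 17.2 to 19.0 CPM in 154Q and 16.7 to 19.4 CPM in 154Q-AXH, overlapped.

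Mxd3 was lower in mutant mice in the forebrain regions, where it had the most counts for its depth. Cortical WT libraries had 0.989, 0.880, 1.02 and 1.21 CPM, 154Q libraries 0.340, 0.491, 0.555 and 0.0703 CPM, and 154Q-AXH libraries 0.441, 0.550, 0.316 and 0.740 CPM. The lowest of these rests on 3 counts, in the cortical library labelled 154Q-76. Hippocampal WT libraries had 0.478, 0.735, 0.648 and 0.686 CPM, 154Q libraries 0.402, 0.334, 0.289 and 0.184 CPM, and 154Q-AXH libraries 0.270, 0.387, 0.311 and 0.301 CPM. All mutant libraries were below all WT libraries in both regions. The lowest hippocampal value, 0.184 CPM, is that of the doubted library 154Q-76. The brainstem, whose markers it holds, has the least Mxd3 in the counts that ignore strand. Whether this bears on the value was not tested. Striatal WT libraries had 1.36, 0.945, 2.32 and 1.04 CPM, 154Q libraries 0.381, 0.717, 0.701 and 0.610 CPM, and 154Q-AXH libraries 0.595, 0.604, 0.956 and 0.540 CPM, where 1 154Q-AXH library reached the WT range. In the cerebellum (0.0570 to 0.242 CPM over all genotypes) and brainstem (0.0568 to 0.162 CPM) the groups overlapped, with 5 to 21 counts a library.

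**Figure D2:**
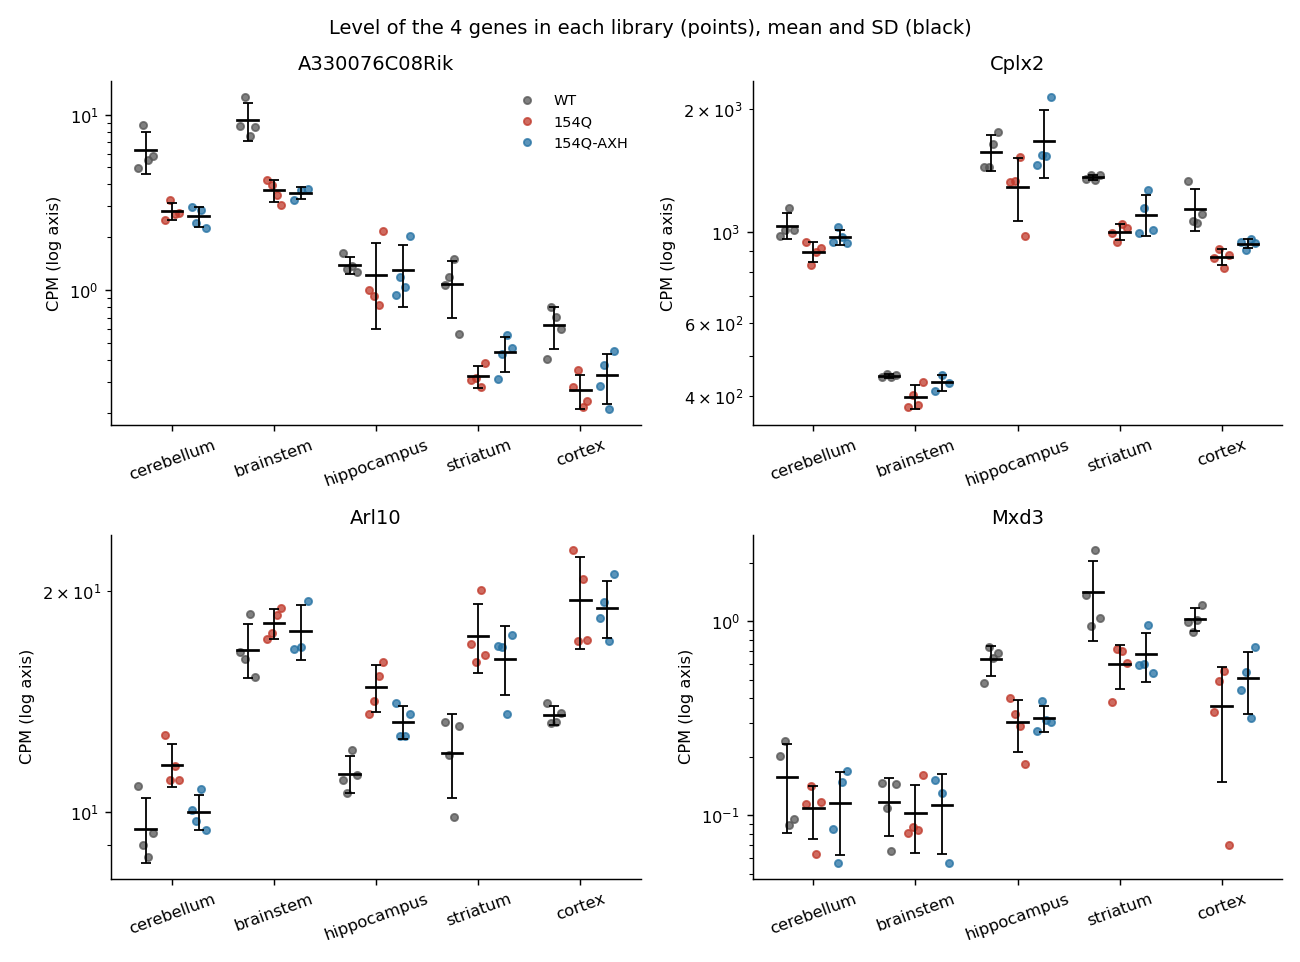
Points are single libraries, in CPM on a log axis, by region and genotype, and black bars give the mean and SD. The cerebellar A330076C08Rik of both mutant genotypes, 2.27 to 3.25 CPM, lies under the WT range of 4.93 to 8.70 CPM, and cortical Arl10, 17.1 to 22.7 CPM, over the WT range of 13.2 to 14.1 CPM.

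As fold changes in 154Q against WT, which chose the members, A330076C08Rik was at 29.1% of its WT level in the striatum, 39.4% in the brainstem, 42.5% in the cortex and 44.8% in the cerebellum. Mxd3 was at 35.7% in the cortex, 41.1% in the striatum and 46.3% in the hippocampus. With counts assigned to 1 strand, which can include Prelid1 pairs, these Mxd3 log2 changes shrank to -0.32, -0.38 and -0.06. Most of those counts lie in bases shared with Prelid1. By them Mxd3 would have been called in none of the 3 regions and so would not have been a member. Cplx2 was at 86.4% in the cerebellum, 73.6% in the striatum and 76.3% in the cortex, and Arl10 was 1.45-fold higher in the striatum, 1.43-fold in the cortex, 1.32-fold in the hippocampus and 1.23-fold in the cerebellum. These are the 14 of 20 gene and region pairs by which the members were picked. Among all genes tested the share called was 11.1% in the cortex, 5.91% in the hippocampus, 5.69% in the striatum, 5.22% in the cerebellum and 0.538% in the brainstem.

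Comparison of 154Q-AXH with WT asked whether the members differ from WT when the expanded ataxin-1 carries the AXH substitutions. The 154Q-AXH libraries did not enter the choice of the members, but the WT libraries did, and both mutant comparisons share them. Of 20 gene and region pairs, 4 passed edgeR's quasi-likelihood test: A330076C08Rik fell in the cerebellum and brainstem, Cplx2 fell in the cortex, and Arl10 rose in the cortex. Over all genes, 7.15% were called in the cortex, 2.21% in the cerebellum, 1.35% in the striatum, 1.3% in the hippocampus and 0.0138% in the brainstem.

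A330076C08Rik in the cerebellum was at 41.9% of WT (log2 change -1.25, SE 0.16, adjusted p = 0.00126). In the brainstem it was at 38.2% of WT (-1.39, SE 0.17, adjusted p = 0.0240) and was 1 of 3 genes called there. This brainstem call was lost when any of the 3 154Q-AXH libraries or WT-221 was left out (adjusted p = 0.0604 to 0.289), although the change itself stayed between -1.20 and -1.48. In the striatum and cortex the noncoding RNA was at 39.9% and 51.4% of WT, just short of the threshold (-1.33, SE 0.30, adjusted p = 0.0534, and -0.96, SE 0.29, adjusted p = 0.0547), and in the hippocampus at 92.2% (-0.12, SE 0.33, adjusted p = 0.907).

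Cplx2 in the cortex was at 82.3% of WT (log2 change -0.28, SE 0.067, adjusted p = 0.0187). Without the 2 cortical libraries whose names cross, the change was -0.28 with adjusted p = 0.0648, and without the 4 doubted libraries -0.30 with adjusted p = 0.119. The call was also lost without 154Q-AXH-209 (-0.26, adjusted p = 0.0639) and with the number series as a covariate (-0.20, adjusted p = 0.215). In the striatum the level was 81.1% of WT with no overlap of libraries (-0.30, SE 0.086, adjusted p = 0.127), and in the other regions it lay between 93.7% and 107% of WT (adjusted p = 0.443 to 0.898).

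Arl10 in the cortex was 1.40-fold higher than in WT (log2 change 0.49, SE 0.094, adjusted p = 0.00506), and 0.51 with adjusted p = 0.0353 without the 4 doubted libraries. It was 1.35-fold higher in the striatum (0.43, SE 0.12, adjusted p = 0.114) and 1.18-fold in the hippocampus (0.24, SE 0.073, adjusted p = 0.134), in both without overlap of libraries, and within 1.06-fold in the cerebellum and brainstem (adjusted p = 0.6997 and 0.893). Mxd3 passed the test in no region. It was at 49.3% of WT in the hippocampus (-1.02, SE 0.24, adjusted p = 0.0588), 46.0% in the striatum (-1.12, SE 0.33, adjusted p = 0.140) and 49.9% in the cortex (-1.002, SE 0.32, adjusted p = 0.0767), and without the doubted library 154Q-76, which takes part in the estimate of spread, the hippocampal adjusted p was 0.0237. Counts assigned to 1 strand, which can include Prelid1 pairs, gave Mxd3 log2 changes of only -0.15, -0.32 and -0.21 in these regions. Most of those counts lie in bases shared with Prelid1, so these smaller changes do not measure Mxd3 alone. How far Prelid1 accounts for them was not tested.

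Summed levels of some marker lists differed between genotypes in the cortex. The summed level of 5 markers of the cortex was 477 to 552 CPM in WT, 318 to 396 CPM in 154Q and 316 to 399 CPM in 154Q-AXH, and that of 5 astrocyte markers was 1148 to 1268, 921 to 1057 and 927 to 1139 CPM. Of the cortical markers 1 was higher and 1 lower in 154Q and 2 were lower in 154Q-AXH, and of the astrocyte markers 4 were lower in 154Q and 0 in 154Q-AXH. Of the microglia, endothelial and oligodendrocyte markers 0 were called in the cortex of either mutant genotype. In the striatum, 5 striatal markers, among them Drd1, which lies within the same 10 Mb, ranged from 417 to 1363 CPM in WT, 163 to 277 CPM in 154Q and 124 to 831 CPM in 154Q-AXH, with 0 of 5 called. Astrocyte markers there summed to 964 to 1079 CPM in WT, 812 to 877 CPM in 154Q and 859 to 929 CPM in 154Q-AXH, with 1 of 5 lower in 154Q and 0 in 154Q-AXH, and endothelial markers to 195 to 212, 165 to 188 and 169 to 199 CPM. The striatal libraries of WT-220 and 154Q-AXH-217 stood apart from their groups: they had the highest striatal markers (1363 and 831 CPM), oligodendrocyte markers at 13773 and 13469 CPM against at most 9600.0 CPM in the other striatal libraries, and the lowest cortical markers (211 and 187 CPM). WT-220 also had the highest WT value of A330076C08Rik and Mxd3 and the lowest of Arl10 and Cplx2 in the striatum. Without 154Q-AXH-217, striatal Arl10 (0.52, adjusted p = 0.0440) and Cplx2 (-0.36, adjusted p = 0.0417) passed in 154Q-AXH, and without WT-220 striatal Mxd3 went from -1.12 to -0.73 (adjusted p = 0.198). In the cerebellum 5 Purkinje cell markers summed to 5605 to 6337 CPM in WT, 4518 to 5002 CPM in 154Q and 4937 to 5316 CPM in 154Q-AXH, with 4 lower in 154Q and 1 in 154Q-AXH, and in the hippocampus 5 markers of dividing cells summed to 9.52 to 14.2, 6.37 to 9.68 and 8.61 to 10.9 CPM. The part of cell composition in the members' differences was not tested, and fewer cells of a type cannot be told apart from less RNA per cell in tissue libraries.

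**Figure D3:**
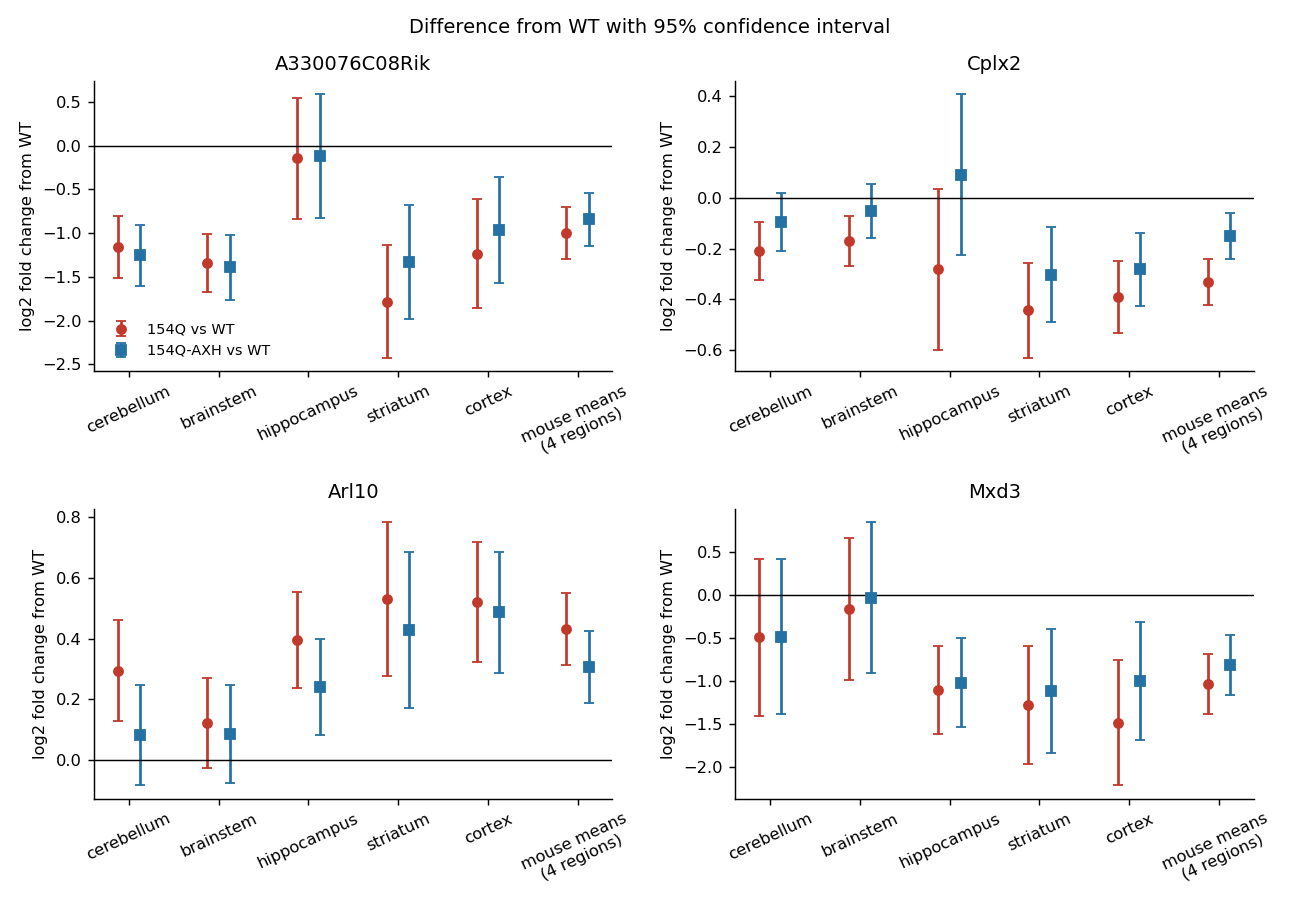
Points give the log2 change from WT for 154Q (circles) and 154Q-AXH (squares) in each region and in the mouse means of 4 regions, with 95% confidence intervals from the fits, on an axis of its own for each gene. The 154Q and WT values chose the members, and the mouse-mean intervals of 154Q-AXH lie on 1 side of 0 for all 4 genes.

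Averaging each mouse over the cerebellum, hippocampus, striatum and cortex made the mouse the unit of comparison. The brainstem was left out because 154Q-AXH-217 has no library of it. The means of WT-221, 154Q-76 and 154Q-AXH-207 include libraries whose labels were in doubt. With limma on these means all 4 members passed the test in 154Q-AXH against WT, where 10.2% of 17566 genes did. No member's 154Q-AXH mice overlapped the WT mice, but the share of all genes without such overlap was not counted. The WT mice also entered the choice of the members, so a shift in them enters both comparisons. These calls are therefore not independent of that choice. A330076C08Rik fell by 0.84 on the log2 scale (SE 0.14, adjusted p = 0.00238) and Mxd3 fell by 0.82 (SE 0.16, adjusted p = 0.00696). Arl10 rose by 0.31 (SE 0.056, adjusted p = 0.00402) and Cplx2 fell by 0.15 (SE 0.042, adjusted p = 0.0381). The corresponding values in 154Q were -0.999, -1.04, 0.43 and -0.33, given as a description, beside a share of 18.2% of all genes called. Cplx2 was the least firm of these calls. It was lost without the cortex (-0.11, adjusted p = 0.312), with counts summed over regions in edgeR (-0.08, adjusted p = 0.421), with no filter on low counts (-0.15, adjusted p = 0.0531), and without mouse WT-70, WT-220, WT-221, 154Q-AXH-207, 154Q-AXH-209 or 154Q-AXH-217 (adjusted p = 0.0521 to 0.121). The calls of A330076C08Rik, Arl10 and Mxd3 passed in each of these settings. With counts assigned to 1 strand, however, Mxd3 was at -0.14 and no longer passed (adjusted p = 0.123), while the other 3 members did.

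Comparison of 154Q-AXH with 154Q asked for the effect of the AXH substitutions themselves. It was a direct test, but 154Q libraries chose the members, so a difference pointing back to WT is not independent of that choice. Of 20 gene and region pairs, 0 passed edgeR's test, where 0.0335% of genes (7 genes) were called in the cerebellum and 0% in the other regions. At an unadjusted p under 0.05 there were 2356 genes in the hippocampus, 1586 in the cerebellum, 1241 in the cortex, 1163 in the brainstem and 601 in the striatum. DESeq2 called 127 genes in the cerebellum, 44 in the hippocampus, 39 in the brainstem and 0 in the cortex and striatum, of which 0 were members.

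Cplx2 had the same sign in all 5 regions, higher in 154Q-AXH by 0.37 on the log2 scale in the hippocampus (95% interval 0.056 to 0.69, adjusted p = 0.422) and 0.14 in the striatum (-0.047 to 0.33, adjusted p = 0.945). It was higher by 0.12 in the cerebellum (0.0018 to 0.23, adjusted p = 0.646), 0.12 in the brainstem (0.012 to 0.22, adjusted p = 0.918) and 0.11 in the cortex (-0.033 to 0.25, adjusted p = 0.791). The hippocampal value was 0.24 without 154Q-AXH-218 (adjusted p = 0.830) and 0.27 without 154Q-76 (adjusted p = 0.663). With the number series as a covariate it was 0.14 and the cerebellar value -0.00079 (adjusted p = 0.914 and 0.996), so the shared sign was lost. In the mouse means the difference was 0.18 (0.093 to 0.27, unadjusted p = 0.000672, limma adjusted p = 0.513), and all 4 154Q-AXH mice, at 10.06 to 10.20 log2 CPM, lay above all 4 154Q mice, at 9.89 to 10.02, and below the WT mice, at 10.24 to 10.33. Without mouse 154Q-76 it was 0.16. This difference fails the correction over 17566 genes, and the mutant genotypes differ in number series as well, so the series and the substitutions cannot be told apart in it.

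For Arl10 the difference was -0.21 in the cerebellum (95% interval -0.38 to -0.050, adjusted p = 0.497), where no 154Q-AXH library reached the 154Q range, or -0.08 with the number series as a covariate (adjusted p = 0.796), and -0.12 in the mouse means (-0.24 to -0.0050, adjusted p = 0.782). In the cortex it was -0.03 (-0.23 to 0.16, adjusted p = 0.956). A330076C08Rik differed by 0.16 in the mouse means (-0.14 to 0.46, adjusted p = 0.868) and Mxd3 by 0.22 (-0.13 to 0.57, adjusted p = 0.834). The intervals for A330076C08Rik in the cerebellum (-0.48 to 0.28) and brainstem (-0.44 to 0.35) did not reach the WT level, from which 154Q differed there by -1.16 and -1.34. For Mxd3 in the cortex the interval was -0.38 to 1.35, beside a change of 154Q from WT of -1.49, and so spanned both the 154Q level and most of the way to WT.

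**Figure D4:**
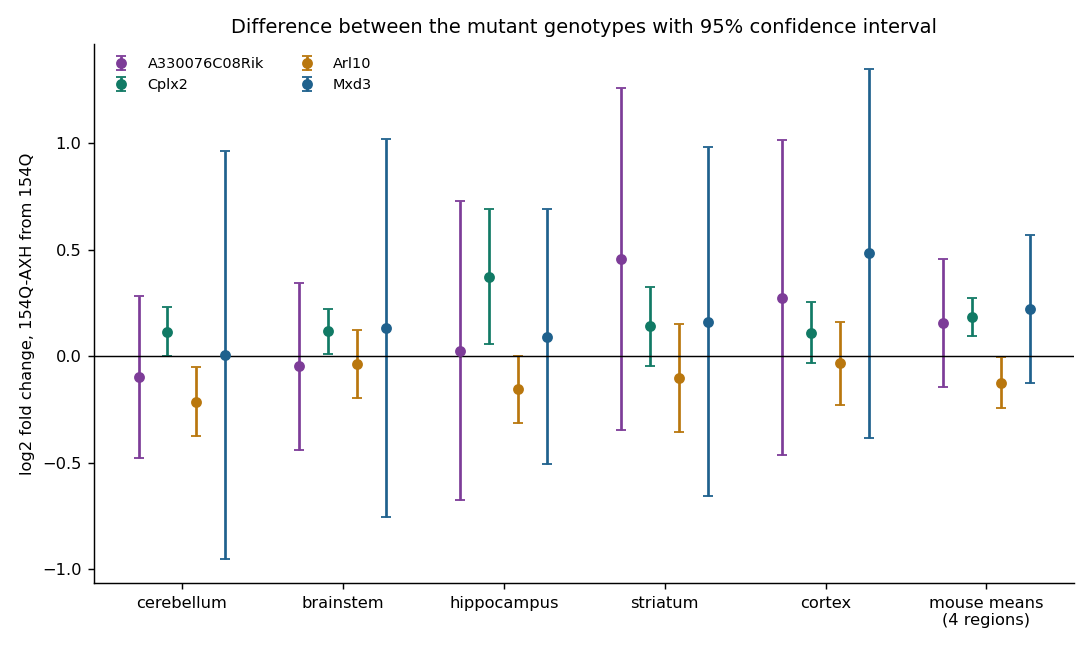
Points give the log2 difference of 154Q-AXH from 154Q for each member in each region and in the mouse means, with 95% confidence intervals that are not adjusted for the number of genes. Cplx2 lies above 0 throughout, from 0.11 to 0.37, and the intervals of A330076C08Rik and Mxd3 cross 0 in every region.

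Whether the 154Q-AXH change from WT differed between regions was tested as an interaction across all 5 regions, where 1.33% of genes were called. The fit took libraries of the same mouse as separate. No member passed: A330076C08Rik had F = 5.26 (adjusted p = 0.104), Arl10 4.29 (adjusted p = 0.197), Cplx2 3.38 (adjusted p = 0.340) and Mxd3 1.12 (adjusted p = 0.914). Without mouse 154Q-AXH-217, Arl10 passed (F = 7.06, adjusted p = 0.0402). The regional calls above are therefore not shown to be particular to a region.

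Atxn1 itself, at the centre of the interval, was called in no region in either comparison. Its brainstem log2 change was 0.24 in 154Q (adjusted p = 0.0785) and 0.28 in 154Q-AXH (adjusted p = 0.219), and in the mouse means 0.11 (adjusted p = 0.228) and 0.18 (adjusted p = 0.0719). The counts do not separate the expanded copy from the normal copy.

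Id4 and Dok3 met the same limits as the members. Id4, an inhibitor of basic helix-loop-helix transcription factors that lies 2.30 Mb from Atxn1, had log2 changes in 154Q of -1.10 in the striatum, -0.49 in the hippocampus, -0.39 in the cortex and -0.32 in the cerebellum. In 154Q-AXH it fell by 0.30 in the cerebellum (adjusted p = 0.00517), 0.41 in the hippocampus (adjusted p = 0.0257) and 0.34 in the cortex (adjusted p = 0.0197), and its striatal value was -0.67 (adjusted p = 0.341). Dok3, an adaptor protein of immune receptor signalling at 9.56 Mb, had -0.63 in the cerebellum and cortex, -1.01 in the hippocampus and -0.94 in the striatum in 154Q, and in 154Q-AXH fell by 0.69 in the hippocampus (adjusted p = 0.0408), 0.87 in the striatum (adjusted p = 0.0329) and 0.81 in the cortex (adjusted p = 0.00945), with -0.49 in the cerebellum (adjusted p = 0.07002). Neither passed the test between the mutant genotypes in the mouse means (Id4 0.13, adjusted p = 0.783, and Dok3 0.11, adjusted p = 0.887). Just outside the window, Cxcl14 at 10.3 Mb was lower in 154Q in 3 regions (cortex -0.35, striatum -0.40 and hippocampus -0.42).

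Close to A330076C08Rik lie 2 further noncoding RNA genes. Gm47781, at -1.73 Mb from Atxn1 where A330076C08Rik is at -1.75 Mb, rose in 154Q-AXH by 1.68 in the striatum (adjusted p = 0.0343) and 1.92 in the cortex (adjusted p = 0.0494), against 1.37 and 2.27 in 154Q. Its sign there was opposite to that of A330076C08Rik, which did not pass edgeR's test in these regions in 154Q-AXH (adjusted p = 0.0534 and 0.0547). Gm47781 was not called in the 154Q-AXH hippocampus (adjusted p = 0.188) and was not tested in the cerebellum and brainstem. Gm5083, at -1.84 Mb, fell in 154Q-AXH in the cerebellum by 0.70 (adjusted p = 0.00026) and in 154Q by 0.90. On the other side, the mitochondrial transporter gene Sfxn1 near Cplx2 rose in 154Q-AXH by 0.17 in the cerebellum (adjusted p = 0.0202) and 0.15 in the cortex (adjusted p = 0.0441).

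Over the whole window, genes within 10 Mb of Atxn1 were called in 154Q in 71 of 871 gene and region tests and in 154Q-AXH in 31. In 154Q these were 14.9% of the genes tested in the cortex, 10.2% in the hippocampus, 8.84% in the cerebellum, 7.05% in the striatum and 0.535% in the brainstem, and in 154Q-AXH 11.2%, 1.61%, 3.87%, 1.28% and 0.535% in the same order. These shares include the members and stand beside the all-gene shares given above. Calls went in both directions, with 11 genes higher and 13 lower in the 154Q cortex, and the median log2 change of the window lay between -0.02 and 0.01 in each region. In the mouse means 32 of 149 genes (21.5%) were called in 154Q, 25 (16.8%) in 154Q-AXH and 0 in 154Q-AXH against 154Q. The shares among all genes were 18.2%, 10.2% and 0%, and the 149 genes include the members. Of the 205 genes, 162 were called in 154Q in no region, 25 in 1, 12 in 2, 2 in 3 (Cplx2 and Mxd3) and 4 in 4 (A330076C08Rik, Arl10, Id4 and Dok3). Genes called in 2 regions, just short of the limit, were Nrn1, Riok1, Sirt5, Ranbp9, Gm5083, Gm47781, Cap2, Nhlrc1, Phf2, Fbxw17, Hrh2 and Rgs14. Among all genes 1.24% were called in 3 regions, 0.3% in 4 and 0.0215% in 5.

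**Figure D5:**
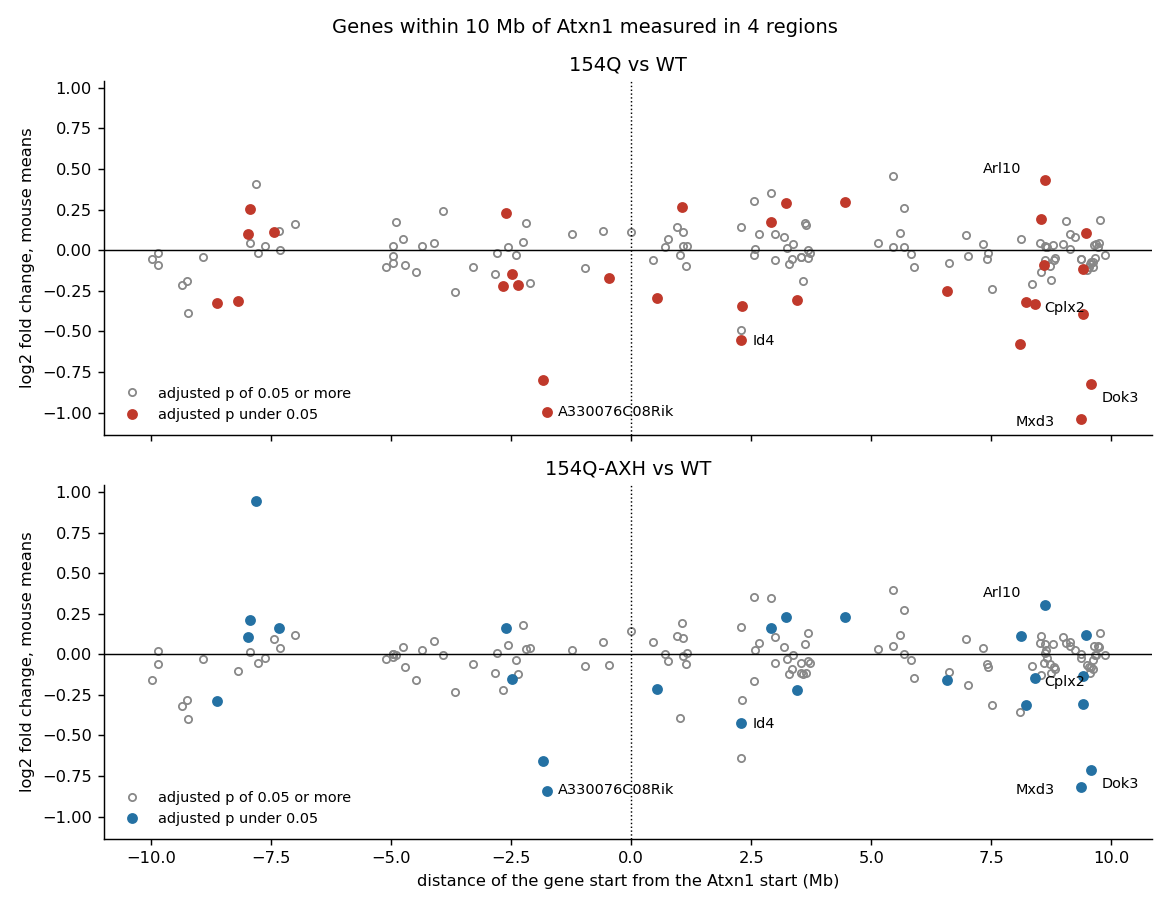
Points are genes within 10 Mb of Atxn1 by the distance of their start from the Atxn1 start, with the log2 change of the mouse means from WT, and filled points passed the limma test. Of 149 genes without Atxn1, 32 passed in 154Q and 25 in 154Q-AXH, on both sides of Atxn1 and in both directions. Among all genes 18.2% passed in 154Q and 10.2% in 154Q-AXH.

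Relatives of the members were taken from 3 lists. Of 12 genes of the MAX network, in which Mxd3 acts, 1 passed in 154Q (Mxd4, lower in the striatum) over 60 gene and region tests, and in 154Q-AXH 3 passed, all in the cortex, where 7.15% of all genes did: Myc rose by 0.47 (adjusted p = 0.0206), Mxd4, another MAX partner that represses transcription, fell by 0.24 (adjusted p = 0.0242), and Mxd1 fell. The 13 tested genes of the vesicle release machinery, on which complexins act, gave 11 calls of 65 tests in 154Q (10 lower), of which 7 of 13 genes were in the cortex, where 11.1% of all genes were called. Their median log2 change in the 154Q cortex was -0.21, against 0.01 for all genes. In 154Q-AXH 3 of 65 tests passed, all lower, beside 7.15% of all genes in the cortex and 1.3% in the hippocampus: Napa, which helps to take SNARE complexes apart, in the cortex (-0.22, adjusted p = 0.0238) and hippocampus (-0.26, adjusted p = 0.0461), and Stx1a in the cortex. Of 16 tested ARL family genes 2 passed in 154Q-AXH, both in the cortex, beside the same 7.15%: Arl5c rose by 0.81 (adjusted p = 0.0220) and Arl5b fell by 0.35 (adjusted p = 0.0274). The family's median log2 change in that region was 0.06, and in 154Q 5 of 80 tests passed, 2 higher and 3 lower, of which 3 of 16 genes were in the cortex beside 11.1% of all genes.

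Among themselves the members varied together over the 59 libraries, after the WT mean of each region was subtracted, as the choice by genotype favours. Arl10 ran against Cplx2 (r = -0.67) and Mxd3 (r = -0.65), and A330076C08Rik followed Cplx2 only loosely (r = 0.46). Of 17540 genes, those most like A330076C08Rik were Fam20a, Phkg1 and Gm40578 (r = 0.71 each), those most like Cplx2 were Prmt8 (0.82), Coro2b and Ano3 (0.80 each), those most like Arl10 included Armcx2 (0.85) and Rbm11 (0.84), and those most like Mxd3 were Plk5 (0.75), Dnah1 (0.74) and Cabp7 (0.73). None of these lies on chromosome 13. The libraries share mice, regions and depth, so these values describe them and carry no test.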

How the data were processed

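Per the labels, polyA RNA was extracted with a Qiagen miRNeasy kit and sequenced as paired-end libraries. Trimmomatic 0.36 and STAR 2.7.2d, run by the authors against GRCm38.p6 with GENCODE M18, gave the deposited counts per gene. The deposited counts that ignore strand were used, since libraries did not keep strand. The 4 summary lines of each file were left out.

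From these counts, edgeR 4.0.16 (TMM, filterByExpr, quasi-likelihood test, Benjamini-Hochberg adjustment over all genes tested, threshold 0.05) was fitted per region with the 3 genotypes together, and WT regions and the 154Q-AXH effect by region likewise. limma 3.58.1 was run on each mouse's mean log2 CPM (prior count 2) over 4 regions. DESeq2 1.42.0, R 4.3.3 and Python 3.11.15 were also used. Each fit was tested on simulated counts. Alternatives were other tools, filters, covariates and counts, and leaving out each library. Added after seeing the data were fits without the 4 doubted libraries and, for WT regions and mouse means, with counts of 1 strand.

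The members and gene lists were chosen with earlier results of these data known. Named beside the members were genes at the limits of the rule, other genes within 10 Mb called in 154Q-AXH in 2 or more regions, the 3 genes most correlated with each member, and at most 2 genes a family list. Gm5083 and Drd1 were named after their values were seen. Not every gene meeting this rule is reported here.

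Same-numbered libraries were taken to come from the same mouse, which pairs WT regions. The doubted libraries, among them cortical WT-221 by Xist and Ddx3y, put this in question for their mice. Deviations of same-numbered WT libraries had a median correlation of 0.027 (40 region pairs), against 0.021 between mice. Nothing pairs the genotypes. p-values within a region and of the mouse means measure the spread between mice. Those of the WT regions and of the interaction measure the spread between libraries, since their main fits took libraries of the same mouse as separate. Positions come from GENCODE M21.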

Additional observations from a re-analysis of the deposited data

Results flagged for a closer look

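In 5 of 56 groups of 4 libraries tested, 1 library lay far from the other 3, with a gap past Dixon's 95% critical value. Chance alone flags about 1 in 20 such groups. A330076C08Rik was 2.16 CPM in the 154Q hippocampus library 154Q-76 against 0.821 to 0.998 CPM in the others, and this is the library with both Xist and Ddx3y and with brainstem markers. Mxd3 was 0.162 CPM in the 154Q-76 brainstem against 0.0807 to 0.0869 CPM, a difference between 16 counts and 7 to 8 counts. Cplx2 was 2140 CPM in the hippocampus of 154Q-AXH-218 against 1459 to 1546 CPM. In the striatum of 154Q-AXH-217, Arl10 was 13.6 CPM against 16.8 to 17.4 CPM and Mxd3 was 0.956 CPM against 0.540 to 0.604 CPM, both toward the WT values. That library had striatal markers at 831 CPM against 124 to 397 CPM and oligodendrocyte markers at 13469 CPM against 5620 to 9600.0 CPM in the other 154Q-AXH striatal libraries. It also had Xist at 583 CPM, as in a female, against 1.91 to 3.60 CPM in those libraries. What set the flagged libraries apart was not tested.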

How the results depend on the processing

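The count of the 20 gene and region pairs called moved most with 2 alternatives. DESeq2 called 8 pairs in 154Q-AXH against WT, where edgeR called 4. When the series of the mouse numbers was a covariate, 2 pairs were called in 154Q-AXH and 6 of 14 in 154Q, in fits that rest on 2 WT mice a series. Smaller losses among the 14 pairs in 154Q came with counts of 1 strand (10 left, without the 3 of Mxd3 and cortical A330076C08Rik), Xist as a covariate (10 left), fits of only the 2 genotypes compared (11), the 4 doubted libraries left out (12), and Ttr as a covariate or no filter (13 each). Leaving out single libraries gave 12 to 15 pairs in 154Q, 3 to 6 in 154Q-AXH and 0 in 154Q-AXH against 154Q, and leaving out single mice gave 3 to 4 members in the mouse means. The regional interaction called 0 members, or 1 without mouse 154Q-AXH-217. A window of 5 Mb, which holds A330076C08Rik only, had 35 calls in 154Q and 17 in 154Q-AXH, against 71 and 31. The cause of these shifts was not tested. Xist as a covariate stands mostly for sex, which was not balanced between genotypes. With the mouse as a replicate block the WT regions gave 8 called neighbours in place of 9, the Cplx2 step from striatum to cortex being lost (adjusted p = 0.0529), and no other call changed. Counts of 1 strand, run for the WT regions and mouse means after seeing the data, gave 7 called neighbours, turned the uncalled Mxd3 step from cerebellum to brainstem from 0.40 to -0.53, and left 3 members called in the 154Q-AXH mouse means. No value called in the report changed sign. With exchanged labels of the cortical pair, A330076C08Rik and Mxd3 passed in the 154Q-AXH cortex (adjusted p = 0.0448 and 0.0319). With few counts of Mxd3, differences under its wide intervals were not detectable at this depth.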
